A study of Mus musculus with 10 samples.

Results

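The neuronal intermediate filament genes were taken as 5 genes, the neurofilament triplet *Nefl*, *Nefm* and *Nefh*, together with *Ina* (alpha-internexin) and *Prph* (peripherin). They were found by their symbols, and 5 of 5 were listed among the 25232 genes of the deposited table. The spinal cord RNA came from 10 female mice of 90 days, C57BL/6 in the labels and C57BL/6J in the methods, 5 of them SOD1 G93A and 5 wild type (WT). SOD1 G93A is a model of amyotrophic lateral sclerosis (ALS), a fatal loss of motor neurons, made by inserting mutant human *SOD1* at high copy number into the mouse genome, and the WT mice were littermates that lack the insert. The labels name the spinal cord, and the methods of the study name its lumbar region. The level of each gene was given as the authors' base mean, which is the mean over all 10 libraries of the read counts divided by DESeq2's size factors. It pools both genotypes, so it has no SD, and it describes the spinal cord of these mice as a set. The levels of single libraries and of each genotype were not analysed here, and no difference between SOD1 G93A and WT mice was tested.

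Intermediate filaments of neurons are built from rod-shaped proteins that pair as coiled coils and then join into long filaments. In large myelinated axons, such as those of motor neurons, the light, medium and heavy neurofilament chains form one polymer, to which alpha-internexin and, in peripheral neurons and motor neurons, peripherin can be added. Neurofilaments fill the axon and are known to set its calibre, the tails of the medium and heavy chains being heavily phosphorylated. Neurofilament proteins accumulate in motor neurons in ALS, and their release into body fluids is used as a measure of axonal damage.

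The 5 genes encode proteins with a common rod and with tails of different length. The Lys-Ser-Pro motif, a site of phosphorylation of neurofilament tails, occurred 51 times in the *Nefh* protein, 4 times in the *Nefm* protein and 0 times in the proteins of *Nefl*, *Ina* and *Prph*. The coding bases of a stretch of 40 residues with the most motifs are shown for both genes, since the motifs set these tails apart, 5′ to 3′ from the GENCODE vM21 transcripts on build GRCm38, with the codons of Lys-Ser-Pro in capitals:
Nefh: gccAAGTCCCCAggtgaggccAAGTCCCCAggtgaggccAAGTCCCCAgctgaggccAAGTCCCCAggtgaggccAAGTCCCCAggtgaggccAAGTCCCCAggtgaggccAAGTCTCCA
Nefm: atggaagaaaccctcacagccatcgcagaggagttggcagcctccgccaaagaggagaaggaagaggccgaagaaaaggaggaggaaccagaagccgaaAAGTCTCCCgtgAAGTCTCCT

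The *Nefh* stretch lies in exon 4 at chr11:4940938-4941057 on the minus strand, encodes residues 521 to 560 and holds 7 motifs with short, nearly identical spacers between them. The *Nefm* stretch lies in exon 3 at chr14:68121063-68121182 on the minus strand and holds 2 motifs.

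**Figure D1:**
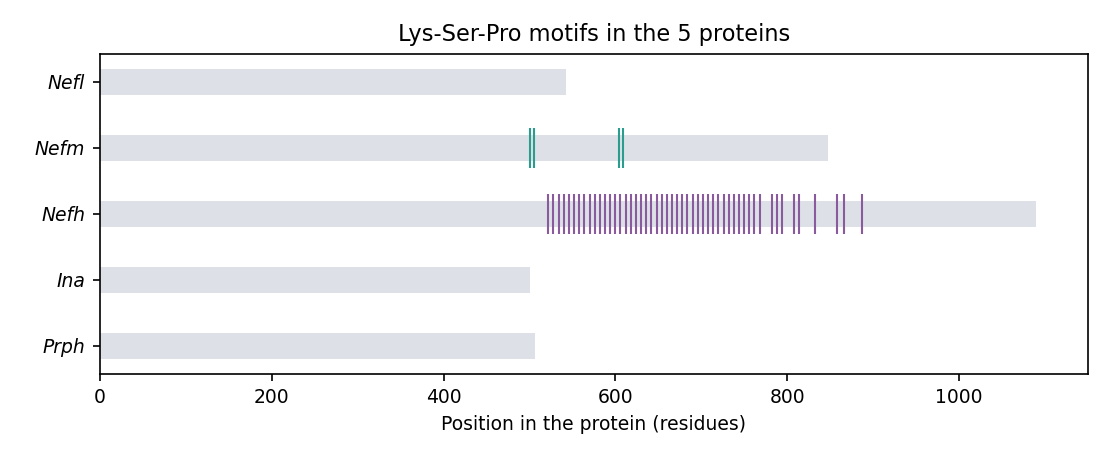
Lys-Ser-Pro motifs along the 5 proteins, as translated from the principal GENCODE vM21 transcripts. Each grey bar is a protein drawn to its length in residues (x axis) and each coloured line is 1 motif. In *Nefh* the 51 motifs lie between residues 522 and 887, and in *Nefm* the 4 motifs lie between residues 501 and 609.

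The proteins encoded by the principal transcripts had 543 residues for *Nefl*, 848 for *Nefm*, 1090 for *Nefh*, 501 for *Ina* and 507 for *Prph*. Residue shares and identities apply to these proteins, and other isoforms were not aligned. Aligned over their whole length, *Nefl* and *Ina* were identical at 52.1% of the aligned positions and *Nefl* and *Nefm* at 52.0%. The lowest identity was 42.2%, between *Nefh* and *Prph*, and the mean over the 10 pairs was 48.1%. Lysine made up 13.5% of the residues of *Nefh* and 11.7% of those of *Nefm*, but 4.34% in *Prph*. Glutamate was most frequent in *Nefm*, at 21.1% of the residues.

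These sequences bear on the counts, because only uniquely mapped reads were counted and the reads were 100 bases long. The longest run of bases shared by the principal transcripts of 2 members, read on the same strand, was 35, between *Nefm* and *Prph*, and the other 9 pairs shared at most 23. On the same strand, 0 stretches of 100 bases of a member's principal transcript were found in the annotated transcripts of another member or of any other gene. On the opposite strand, 1009 of 3281 such stretches of *Nefl* (30.8%) matched a longer *Nefm* transcript that lies over *Nefl*. Within *Nefh*, 44 of 3895 such stretches (1.13%) occurred more than once in the transcript itself, and in the other 4 members 0 did. In *Ina*, 357 of 3141 stretches (11.4%) matched the opposite strand of transcripts of *Nt5c2*, a nucleotidase gene that overlaps the start of *Ina*. Matches were exact, and reads that cross introns or pair over longer distances were not modelled.

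*Nefl* and *Nefm* are neighbours on chromosome 14 of GRCm38 and are read towards each other on opposite strands. In the RefSeq annotation of GRCm38.p6, *Nefl* lies at chr14:68083863-68089095 and *Nefm* at chr14:68119545-68125004, with 30449 bases between them. GENCODE vM21 holds a second *Nefm* transcript that extends the gene to chr14:68082590-68124846, across the whole of *Nefl*. Its exons overlap those of *Nefl* over 1108 bases on the other strand, which is 32.8% of the exonic length of *Nefl*. The gene annotation and the strand setting of the counting are not given in the sources used here, so reads of these bases may have been assigned to either gene or to neither. By symbol, 99.2% of the genes of the table were found in RefSeq and 96.5% in GENCODE.

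*Nefh* lies at chr11:4938754-4948064 on the minus strand, between *Thoc5*, 9886 bases away, and *Ap1b1*, 38759 bases away. Per kilobase of mRNA, the base mean of *Thoc5* was 391.0 and that of *Ap1b1* 1462, against 6192 for *Nefh*. *Ina* lies at chr19:47014698-47025327 on the plus strand, where *Nt5c2* overlaps its first exon over 456 bases on the opposite strand. The base mean of *Nt5c2* was 1841 and that of *Ina* 8132. The next gene on the right of *Ina* was *Pcgf6*, with a base mean per kilobase of 103.6. *Prph* lies at chr15:99055174-99058978 on the plus strand, 17063 bases from the tubulin gene *Tuba1c*, which had a base mean per kilobase of 228.3. On the other side lay *Gm34284*, an antisense RNA gene with a base mean of 0.196.

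In their principal transcripts the 4 type IV genes had few introns, namely 3 in *Nefl* and *Nefh* and 2 in *Nefm* and *Ina*. The principal transcript of *Prph*, a type III gene, had 7. GENCODE vM21 lists 4 transcripts of *Prph*, and the exons and proteins of the others were not examined. An exon of 125 bases was present in *Nefl*, *Nefm* and *Ina* as exon 2 and in *Nefh* as exon 3. The principal transcript of *Prph* had no exon of this length. *Ina* had the longest principal transcript span, 10630 bases, and *Prph* the shortest, 3803 bases.

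**Figure D2:**
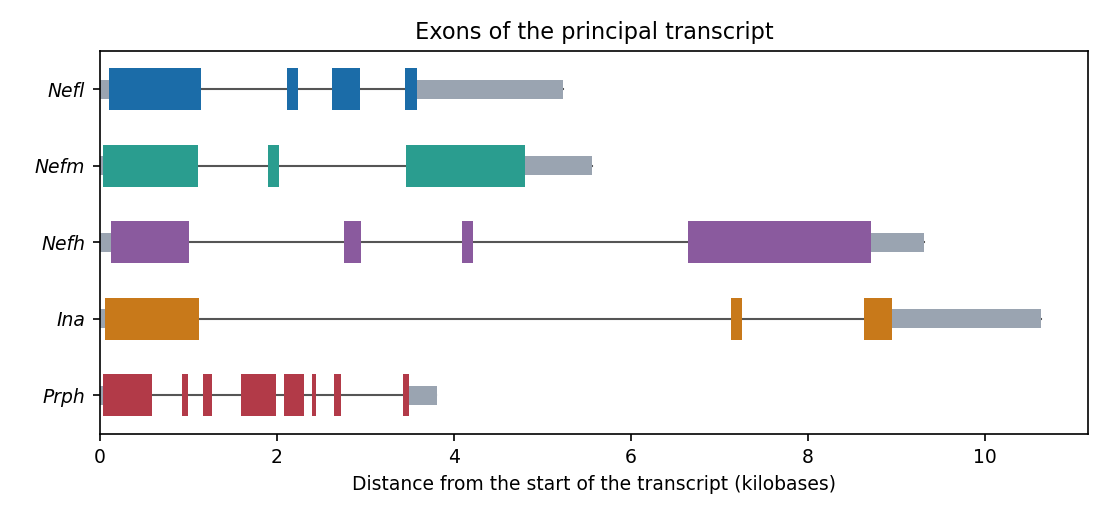
Exons of the principal GENCODE vM21 transcript of each gene, plotted by distance from the start of the transcript in kilobases. Tall coloured boxes are coding, low grey boxes are exonic but not coding, and lines are introns. The 4 type IV genes have 3 or 4 exons and *Prph* has 8.

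The 3 neurofilament chains were among the most abundant transcripts of the spinal cord. The authors' base mean was 47472 for *Nefl*, 43689 for *Nefm*, 24730 for *Nefh*, 8132 for *Ina* and 1424 for *Prph*. Ordered from the highest base mean, *Nefl* was number 16, *Nefm* number 19 and *Nefh* number 54 of the 20973 genes with a base mean above 0. *Ina* was number 376 and *Prph* number 3885, within the highest 18.5% of these genes. The median base mean of the genes above 0 was 247.1. The 5 genes took 0.566% of the sum of all base means, which was 22158933, and the triplet alone took 0.523%. In bulk tissue, fewer cells of a type and less RNA per cell cannot be told apart.

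The genes with a base mean above that of *Nefl* were largely genes of glia and neurons. Among these 15 genes were the myelin genes *Mbp* and *Mobp*, the astrocyte genes *Gfap* and *Slc1a2*, the synaptic gene *Snap25*, the microtubule-associated *Map1a* and *Kif5a*, a kinesin heavy chain that carries cargo, neurofilaments among them, along axons.

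Because longer transcripts give more reads, levels of different genes were compared per kilobase of the longest annotated transcript. On this scale *Nefl* was highest, at 14045 normalized counts per kilobase. *Nefm* followed at 11872, so that *Nefl* was 1.18 times as high. *Nefh* stood at 6192, or 0.441 of *Nefl*. *Ina* stood at 2510, which is 5.60-fold below *Nefl*, and *Prph* at 764.3, which is 18.4-fold below it. *Nefl* thus led all 5 and the triplet held 90.7% of the summed level per kilobase of the 5 genes. The spread between mice is not known for these values, so whether *Nefl* and *Nefm*, the closest neighbours in the order, differ beyond it could not be told.

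**Figure D3:**
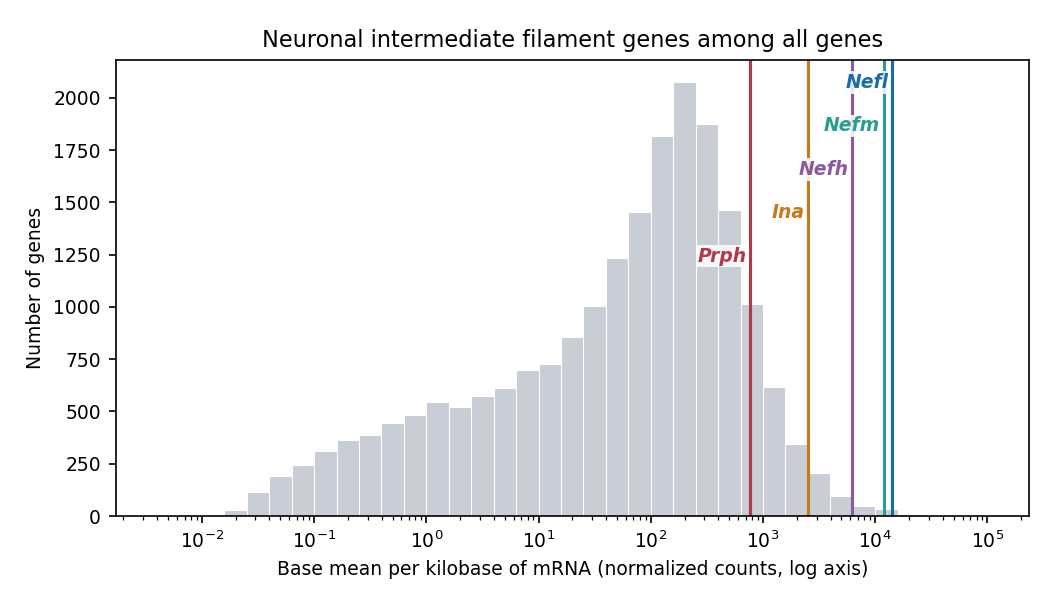
Base mean per kilobase of mRNA (x axis, log) of the genes with a base mean above 0 and a known length, as a histogram of the number of genes (y axis), with the 5 members as coloured lines. *Nefl* (14045), *Nefm* (11872) and *Nefh* (6192) lie in the far right tail, *Ina* (2510) at its foot and *Prph* (764.3) on the right shoulder of the distribution.

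Among the 20399 genes above 0 with a known length, *Nefl* was number 24 per kilobase, *Nefm* number 37 and *Nefh* number 97. *Ina* was number 397, within the highest 1.95%, and *Prph* number 1878, within the highest 9.21%. The median of all these genes was 83.7 normalized counts per kilobase. *Sparc* (14280) stood just above *Nefl* and *Ndrg2* (13730) just below it, and *Prph* stood between *Nme1* (764.5) and *Add2* (764.2).

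The order *Nefl*, *Nefm*, *Nefh*, *Ina*, *Prph* was the same under all 5 measures tried, which were the base mean itself and the level per kilobase of the longest transcript, the principal transcript, the union of exons and the coding part. The distances changed. Per kilobase of coding sequence, *Nefl* stood at 29142, *Nefm* at 17173, *Nefh* at 7563, *Ina* at 5410 and *Prph* at 936.2. The step from *Nefl* to *Nefm* lay between 1.07 and 1.86 times, with the highest value for the union of exons, to which the second *Nefm* transcript adds length. This second transcript, of 3680 bases, is also the longest and so sets the main *Nefm* level of 11872. Per kilobase of the principal transcript, of 3334 bases, *Nefm* stood at 13104 and the step was 1.07 times. The step from *Nefh* to *Ina* was 2.47 times per kilobase of the longest transcript and 1.40 times per kilobase of coding sequence.

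**Figure D4:**
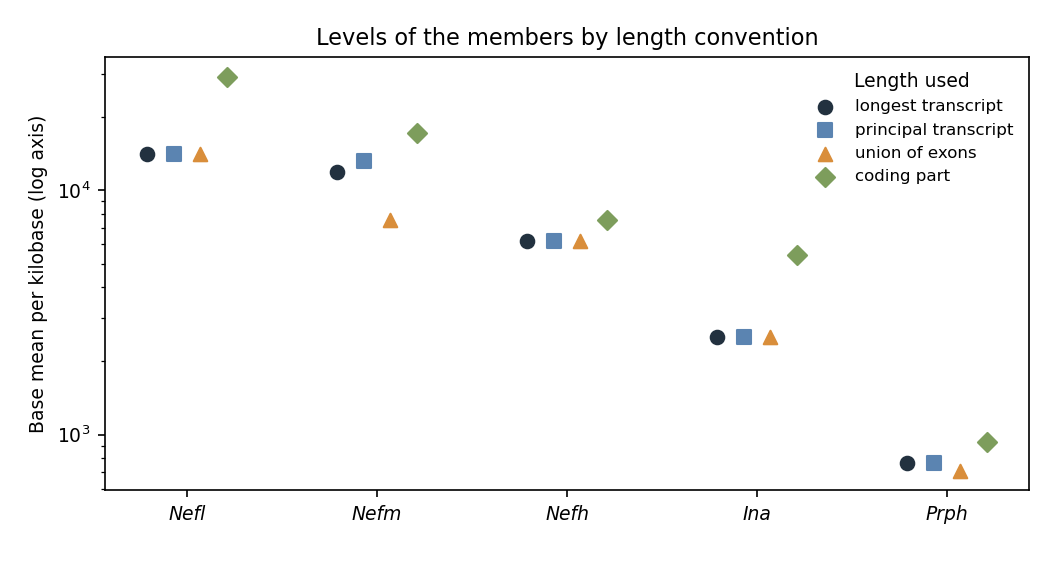
Base mean per kilobase (y axis, log) of each gene (x axis) by the 4 lengths used to scale it. The order of the 5 genes is the same for each symbol, and the *Nefm* level falls from 11872 to 7556 when the union of exons is used.

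Other genes of the intermediate filament family were set beside the members. Of 11 such genes, 2 were above *Prph* per kilobase, and *Gfap*, the filament of astrocytes, was the only 1 above *Nefl*, at 21257 normalized counts per kilobase. Vimentin (*Vim*), found in glia and vessel cells, stood at 889.3, close to *Prph*, and *Synm*, a partner of other filaments, at 373.6. *Nes*, the filament of neural progenitors, stood at 97.9, and the nuclear lamin genes *Lmna*, *Lmnb2* and *Lmnb1* at 259.8, 154.1 and 80.3. *Des*, the filament of muscle, stood at 31.1. The 10 genes other than *Gfap* lay at least 15.8-fold below *Nefl* per kilobase.

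The enzymes that phosphorylate neurofilament tails or act on the phosphorylated sites were all measured, with levels between 319.3 and 4203 normalized counts per kilobase over 10 genes. *Ppp2r1a*, a scaffold subunit of protein phosphatase 2A, was highest by base mean, followed by the catalytic subunit gene *Ppp2ca* (1010 per kilobase). The kinase gene *Cdk5* stood at 1131, 12.4-fold below *Nefl*, and its activators *Cdk5r1* and *Cdk5r2* at 429.6 and 674.6. *Mapk3* (2156) and *Gsk3a* (1766), both kinases of Lys-Ser-Pro sites or of nearby sites, were above *Cdk5*, and *Gsk3b* (620.3) was below it.

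Of 10 genes of transport, cross-linking and turnover, *Kif5a* was highest, at 9135 normalized counts per kilobase, above *Nefh* and below *Nefm*. The other conventional kinesin genes *Kif5c* and *Kif5b* stood at 3213 and 2318, and *Dync1h1*, the heavy chain of the returning motor dynein, at 1685. The cross-linker genes *Dst*, *Macf1* and *Plec* stood at 919.4, 515.5 and 438.7. *Trim2*, a ubiquitin ligase that binds the light chain, stood at 1230 and *Cul3* at 668.9. Of 2 genes whose proteins bind neurofilament mRNA, *Tardbp* stood at 642.6 and *Arhgef28* at 216.8.

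Among 12 other cytoskeletal genes of axons, 3 exceeded *Nefh* per kilobase and 1 exceeded *Nefl*. The tubulin gene *Tubb4a*, at 16649, was the 1 above *Nefl*, and *Tuba1a* (9671) and the neuronal tubulin gene *Tubb3* (6802) were the others above *Nefh*. By base mean the highest of the list were *Map1a* (51494), *Map1b* (44100) and *Tubb4a* (37094), but *Map1a* and *Map1b* have long mRNAs of 11825 and 11808 bases and stood at 4355 and 3735 per kilobase.

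The tissue was checked with marker genes. The neuronal genes *Snap25*, *Eno2* and *Stmn3* stood at 12100, 8709 and 8360 normalized counts per kilobase, and *Rbfox3* and *Syt1* at 1111 and 1090. All 5 oligodendrocyte and all 5 astrocyte markers were measured, led by *Mbp* (66628) and *Slc1a2* (4765). Homeobox genes of the cervical, thoracic and lumbar cord were all above a base mean of 10. The highest base mean was 692.1 in the cervical list (*Hoxa5*), 1358 in the thoracic list (*Hoxc8*) and 488.6 in the lumbar list (*Hoxc10*). The median base means of these lists were 319.9, 373.0 and 151.8, so the lumbar genes were not the highest. The 4 sacral genes *Hoxd12*, *Hoxa13*, *Hoxc13* and *Hoxd13* lay between 0.180 and 6.27. Of 5 forebrain genes, 2 had a base mean of at least 10, with *Neurod6* at 78.9, *Tbr1* at 3.60 and *Emx1* at 0.993.

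Markers of motor neurons, the cells for which both neurofilaments and peripherin are best known, were lower than every member per kilobase of mRNA. By base mean, *Slc5a7* (2316) was above *Prph* (1424). *Slc5a7*, *Slc18a3* and *Chat*, which serve acetylcholine supply, stood at 447.1, 484.8 and 257.3 normalized counts per kilobase, and the transcription factor genes *Isl1* and *Mnx1* at 18.1 and 16.6. *Chat* was thus 33.7% of *Prph* and 54.6-fold below *Nefl*.

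*Prph* is also expressed in sensory neurons of the dorsal root ganglia, which can adhere to a dissected cord. All 9 markers of these cells had a base mean above 0 and 8 of 9 were at least 10. Their levels ran from 2.80 (*Mrgprd*) to 116.9 (*Prrxl1*) normalized counts per kilobase, with a median of 14.4, against 764.3 for *Prph*. *Prrxl1*, *Pou4f1* and *P2rx3* had the highest base means, of 349.0, 241.1 and 112.9, and *Prrxl1* is also known in dorsal horn neurons of the cord. The summed level of the 9 genes was 299.7 and that of the 5 motor neuron markers 1224. The Schwann cell gene *Prx*, a marker of peripheral nerve and spinal roots, stood at 89.1, and *Pmp22* and *Sox10*, which central glia also express, at 1832 and 1139. Whether roots or ganglia contributed to the level of *Prph* was not tested.

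**Figure D5:**
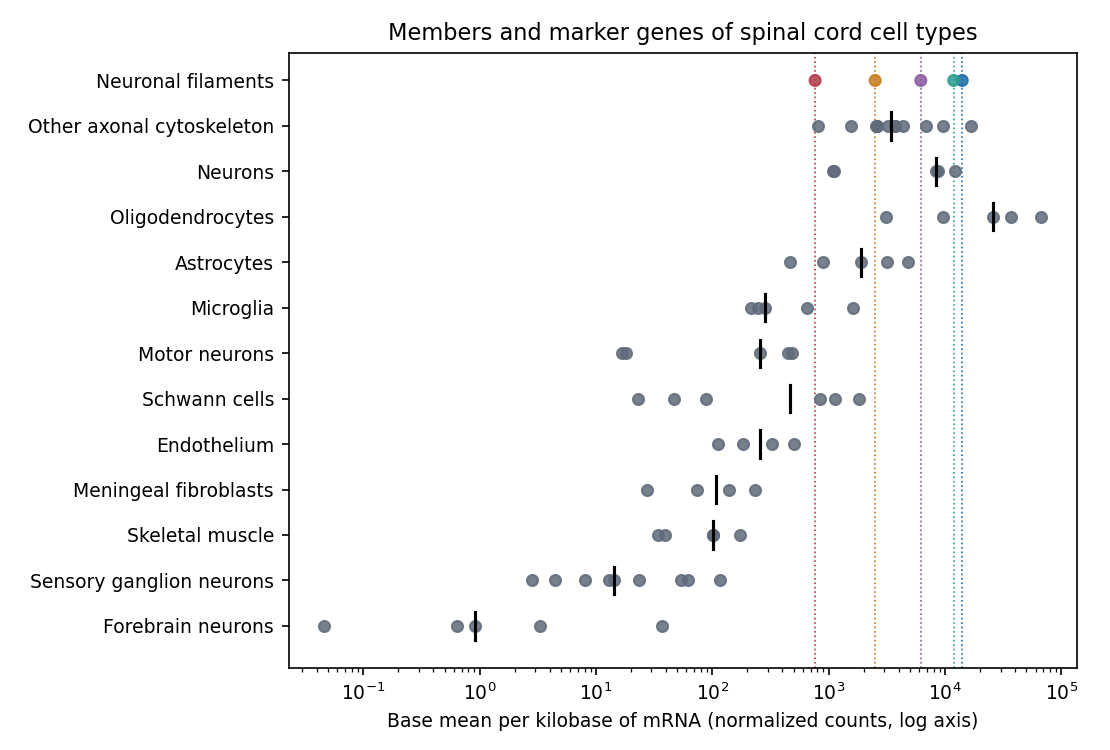
Base mean per kilobase of mRNA (x axis, log) of the 5 members (coloured points and dotted lines, in the order of *Prph*, *Ina*, *Nefh*, *Nefm* and *Nefl* from left to right) and of marker lists (grey points, 1 gene each, with the median as a black line). The motor neuron markers (16.6 to 484.8) and the sensory ganglion markers (2.80 to 116.9) all lie to the left of *Prph* (764.3).

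Markers of other tissues that could enter a dissection, of endothelium and of microglia were also measured. For scale, the median of the genes above 0 with a known length was 83.7 normalized counts per kilobase. The 5 skeletal muscle genes lay between 33.8 and 173.7 normalized counts per kilobase, with *Acta1* the highest, and the 4 genes of meningeal fibroblasts between 27.5 and 234.6. The 4 endothelial genes ran from 111.7 to 501.2, and these 3 lists had 0 genes above *Prph*. The 5 microglial genes had a median of 284.5, with *Csf1r* at 647.0 and *Cx3cr1* at 284.5.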

How the data were processed

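Spinal cord RNA of 5 WT and 5 SOD1 G93A mice was sequenced, and groups were taken from the genotype labels. According to the methods and the submitters' processing notes, reads were filtered with Fastp, aligned to mm10 with HISAT2 2.1.0 and counted with featureCounts 2.0.2 as uniquely mapped reads, and groups were compared with DESeq2. Strand setting and annotation are not given in the sources used here. The authors deposited 1 table. Its base mean was used as a signal that the authors computed as the mean of normalized counts over all libraries. Its other 5 columns hold the authors' own comparison between the genotypes (log2 fold change, standard error, Wald statistic, p-value and adjusted p-value). They were not used, so no test was made and no depth per library is given. The sum of base means gives the mean normalized library total.

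Levels were divided by mRNA lengths from GENCODE vM21 (GRCm38, the build that mm10 denotes). Proteins were translated from 1 principal GENCODE transcript per gene and aligned globally with biopython 1.88 (BLOSUM62, gap opening 10, extension 0.5). Python 3.11.15, pandas 2.3.3, numpy 2.4.6 and matplotlib 3.10.9 were used, and the steps were tested on simulated data. Named genes were all members, the genes above the highest member, the nearest annotated genes and, of each list, the 3 highest by base mean and those at 0, and other list genes were named after their values were seen. Members and lists were chosen with earlier results of these data known. Alternatives were other lengths, a minimum base mean of 10, sums without mitochondrial or the 100 highest other genes, BLOSUM80, identity over the shorter protein and any Ser-Pro pair. Some genes and sequences that these rules would name are not reported here.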

Additional observations from a re-analysis of the deposited data

How the results depend on the processing

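The ratio of *Nefl* to *Nefh*, 2.27 per kilobase of the longest transcript, was 3.85 per kilobase of coding sequence and 1.92 without a length, and it was the same over the union of exons. The share of the members in all normalized counts, 0.566%, rose to 0.677% without the 100 highest other genes, and the table held 0 symbols of the mitochondrial genome to leave out. The mean protein identity, 48.1%, was 45.3% over the shorter protein and 54.4% with BLOSUM80. Leaving out genes below a base mean of 10 could not change the ranks of the members, which all lie above it, whereas ranking per kilobase moved all 5, *Prph* from 3885 to 1878. Counting any Ser-Pro pair gave 55 in *Nefh*, 10 in *Nefm*, 2 in *Prph* and 0 in *Nefl* and *Ina*. The ratio of *Nefl* to *Nefm*, 1.18 per kilobase of the longest transcript, ran from 1.07 to 1.86 under other lengths, an alternative added after the data were seen. No paired analysis was possible because the base mean pools all libraries, and for the same reason no replicate could be left out. The annotation that set the counted length is unknown, which limits every level per kilobase.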

Other observations

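Apart from *Krt222*, keratins, the intermediate filaments of epithelia, were far below the neuronal filaments. Keratin genes were taken as symbols of Krt followed by a number alone, so symbols that end in a letter were left out. Of 51 such genes, 12 were listed at a base mean of 0, as were 4259 of all 25232 genes. The 12 were *Krt13*, *Krt32*, *Krt34*, *Krt35*, *Krt39*, *Krt4*, *Krt72*, *Krt74*, *Krt81*, *Krt82*, *Krt84* and *Krt88*. Of the 51 genes, 7 had a base mean of at least 10. *Krt222* stood apart, with a base mean of 1307 against 1424 for *Prph*. Per kilobase, *Krt222* stood at 425.4 normalized counts, 55.7% of *Prph*. The next by base mean were *Krt10* (81.0) and *Krt1* (65.0).

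The genes of the lens filament were detected as well. *Bfsp2* had a base mean of 310.2, or 186.7 per kilobase, and its partner *Bfsp1* had a base mean of 38.1, or 16.1 per kilobase. Both were below *Prph* per kilobase, with *Bfsp2* at 24.4% of it.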
